A study of Saccharomyces cerevisiae with 12 samples.

Results

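The genes described here are 44 genes of the DNA replication machinery and of the core histones of Saccharomyces cerevisiae, budding yeast. They were chosen by name and by their place in a complex, not by their values, although earlier results of these data were known. They cover the origin recognition complex, the MCM helicase and the factors that load and activate it, and the GINS complex. The others are the replicative DNA polymerases with primase and PCNA, the single-strand binding complex RPA, the clamp loader RFC, and the 8 core histone genes. Of the 44 genes, 43 had a probe set and 40 were bright enough to be tested, out of 5449 genes with a probe set and 4086 tested. HHF2 was not analysed here, and ORC6, CDC6 and SLD3 fell below the brightness limit, a mean signal of 110.2.

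The study grew yeast at 2%, 1%, 0.5% or 0.25% glucose, with no other difference between the groups in the labels, and read total RNA of 3 samples of each level on 12 single-colour Affymetrix arrays. Nothing in the labels says that the 3 samples came from separate cultures, so p-values measure the spread between these samples, which may be technical. Sample titles hold the word log without explanation, and the sources used here name no strain, growth phase or time of sampling. Values are array signals, linear intensities scaled between arrays by the authors. Such scaling hides any change in total RNA per cell, and in a bulk culture fewer cells in S phase and less RNA per cell cannot be told apart.

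As background, a replication origin is bound by the origin recognition complex, which with Cdc6 loads the MCM helicase in G1. Cyclin-dependent and Cdc7 kinases then let Sld3, Cdc45 and GINS activate the helicase, polymerase alpha-primase starts each strand, RFC loads the PCNA clamp, and polymerases epsilon and delta extend the DNA while RPA covers single strands. The new DNA is wrapped on histones, whose genes are transcribed in S phase, and many replication genes are transcribed at the G1/S transition. Their levels in a culture are known to vary with the share of cells in S phase.

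Array quality differed between 2% and the 3 lower glucose levels, which were close to each other. Averaged over 5 control genes, the 3'/5' signal ratio on the log2 scale was 0.91 ± 0.04 (SD, n = 3) at 2% and 0.63 ± 0.04, 0.65 ± 0.04 and 0.59 ± 0.03 at 1%, 0.5% and 0.25%. Over 17 probe sets for ribosomal RNA, the log2 signal averaged 7.77 ± 0.94 at 2% and lay between 8.90 and 9.08 at the lower levels (SD from 0.63 to 0.70). Single arrays overlapped in this measure: replicate 3 at 2% had 8.76 and replicate 1 at 0.25% had 8.12. All comparisons with 2% share the same 3 arrays, and the part of these differences in the results was not tested. Arrays of the same level correlated with r between 0.9815 and 0.9933 across the tested genes, which are not independent replicates, and arrays of different levels with r between 0.9588 and 0.9954.

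None of the 40 tested genes differed from 2% glucose at any lower level by limma's test (Benjamini-Hochberg adjusted p under 0.05 over all 4086 genes), while 4.04% of all tested genes passed at 0.25%, 1.15% at 0.5% and 0.245% at 1%. At an unadjusted p under 0.05 the members that passed were 6 at 0.25%, 8 at 0.5% and 0 at 1%, which is 15%, 20% and 0% of 40, against 15.8%, 14.1% and 6.90% of all tested genes. The 33 replication factors sat slightly lower than the average gene. Their median log2 difference from 2% was -0.06 at 0.25%, -0.15 at 0.5% and -0.12 at 1%, beside -0.02, -0.05 and -0.02 over all tested genes. The size of the shift depended on single 2% arrays. Without replicate 2 at 2% the median over all 40 members was -0.02, -0.05 and -0.03, beside 0.01, -0.02 and 0.00 over all tested genes. Without replicate 3 at 2% it was -0.10, -0.17 and -0.10, beside -0.04, -0.08 and -0.05. The 7 histone genes did not share that shift, with medians of -0.02, 0.10 and 0.05, though with quantile normalization the median at 0.5% was -0.01 and 4 of the 7 genes were negative. The difference between the histone and factor medians was not tested, since the genes were chosen with earlier results known.

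The precision was enough to bound the size of any change in array signal. The part of array quality in the signals was not tested. The median standard error of a member's log2 difference was 0.10. For 38 of the 40 genes the 95% interval of the difference between 0.25% and 2% lay within 1.5-fold in either direction, as it did for 35 at 0.5% and 39 at 1%. The widest intervals reached 1.62-fold lower for POL12 and 1.48-fold higher for POL31 at 0.25%, and 1.92-fold lower for POL12 at 0.5%.

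**Figure D1:**
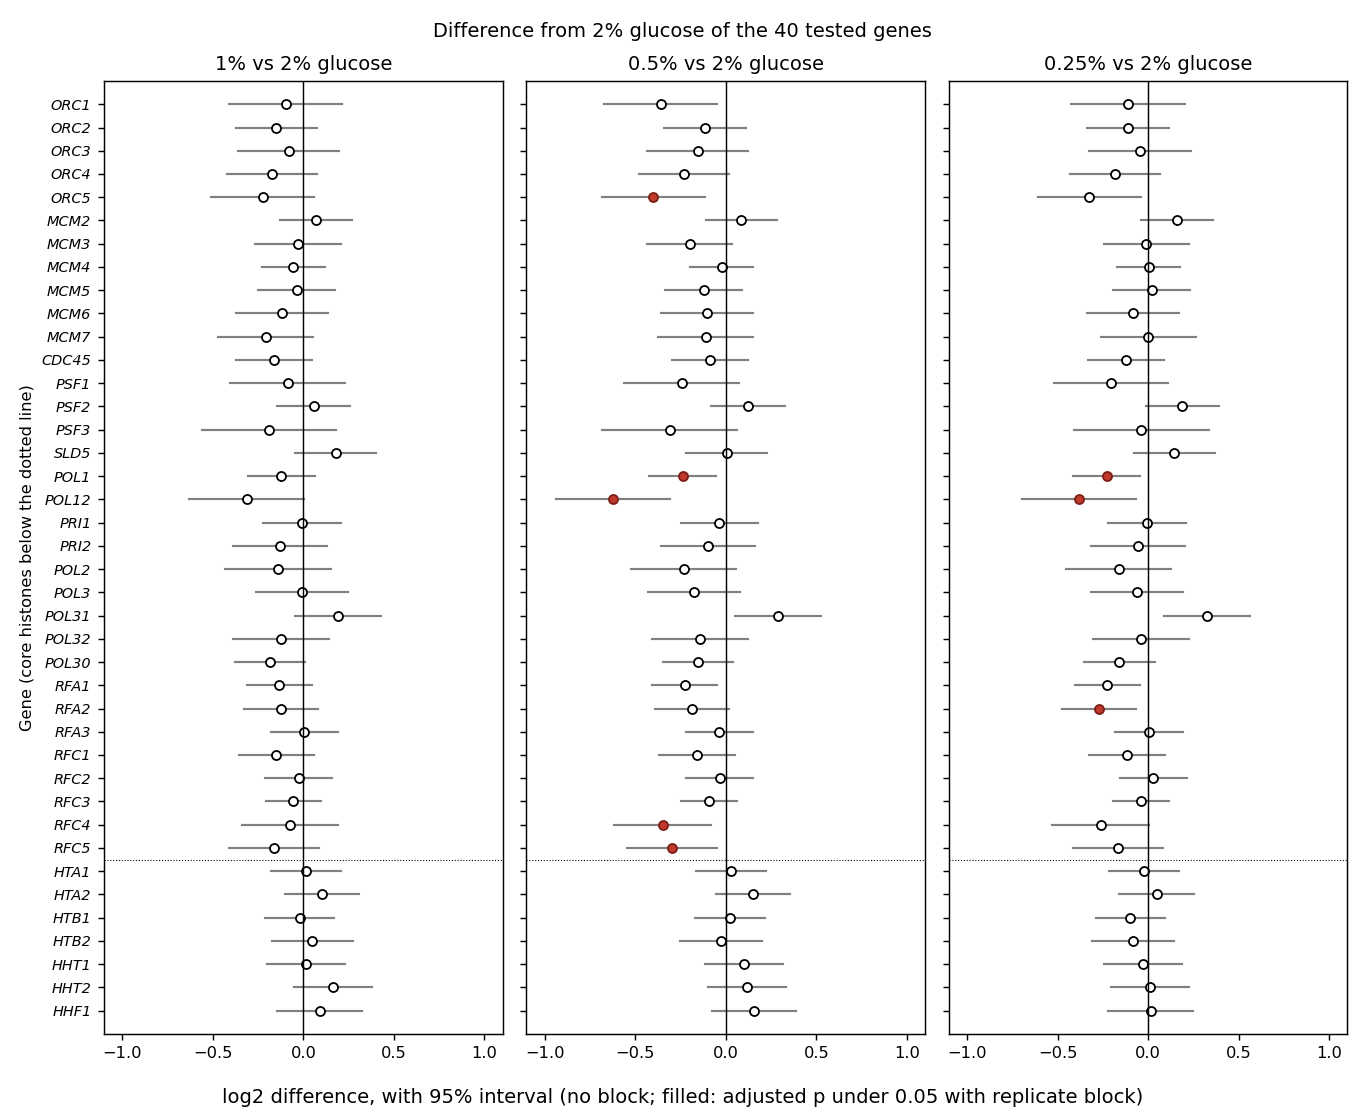
Log2 difference from 2% glucose of each of the 40 tested genes (y axis) at 1%, 0.5% and 0.25% glucose, with points for the estimate, bars for the 95% interval of the fit without a block, and filled points for genes with adjusted p under 0.05 in the fit with the replicate number as a block. The filled points are 3 genes at 0.25% and 5 at 0.5%, all left of 0. The 7 histone genes below the dotted line lie between -0.10 and 0.16, with no filled points.

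The arrays carry replicate numbers 1 to 3 at each level. Arrays with the same number deviated together from their level means in all 3 pairs for 0.25% against 2% (r from 0.12 to 0.53 across genes) and for 0.5% against 2% (r from 0.19 to 0.47), so the fit with that number as a block is given beside these comparisons. That fit uses all 12 arrays, so its replicate terms also draw on the 1% arrays. For 1% against 2% the replicate 2 pair had an r of -0.03, which limits how far the blocked p-values can be relied on. With the block, 3 of 40 members passed at 0.25% (7.5%, against 10.9% of all tested genes) and 5 of 40 at 0.5% (12.5%, against 9.69%). Every one of these calls was a lower signal, where 4.53% and 6.34% of all tested genes were called lower and 6.36% and 3.35% higher. The members' overall share of calls was therefore near that of other genes. The genes were POL1, POL12 and RFA2 at 0.25%, and ORC5, POL1, POL12, RFC4 and RFC5 at 0.5%.

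POL12 encodes the B subunit of polymerase alpha-primase, which lays down the RNA-DNA primer of each new strand. Among the 40 tested members POL12 had the largest fall from 2% at all 3 lower levels. Its signal was 428, 311 and 325 at 2%, 337, 265 and 253 at 1%, 239.7, 206 and 241 at 0.5%, and 310.1, 238 and 265 at 0.25% glucose (replicates 1 to 3 at each level). All 3 arrays at 0.5% and all 3 at 0.25% lay below all 3 at 2%, though replicate 1 at 0.25% lay just below replicate 2 at 2%, and replicate 1 was the highest of the 3 at every level except 0.5%. The mean fell from 355 ± 63.5 to 229 ± 20.1 at 0.5% (SD, n = 3 each), a log2 difference of -0.62 (SE 0.15; 1.54-fold lower), which passed with the replicate block (limma adjusted p = 0.00091) and missed the threshold without it (0.055). With quantile normalization, median scaling or no filter on dim genes it passed without the block as well. The blocked call held without any single array, with adjusted p up to 0.011. At 0.25% the log2 difference was -0.38 (limma adjusted p = 0.21; 0.016 with the block), and the blocked call was lost without replicate 1 at 2% (0.098) and without any 1 of the 3 arrays at 0.25%. At 1% the log2 difference was -0.31 (limma adjusted p = 0.735).

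POL1, the catalytic subunit of polymerase alpha, gave 602, 616 and 498 at 2%, 534, 529 and 508 at 1%, 492, 494 and 463 at 0.5%, and 493, 491 and 473 at 0.25%. The arrays at the lower levels lay close together, while replicate 3 at 2% was below all 3 arrays at 1%, so 2% overlapped with 1% but not with 0.5% or 0.25%. Its log2 difference was -0.23 (SE 0.09) at 0.25% and -0.24 at 0.5%, with limma adjusted p of 0.19 and 0.23 without the block and 0.040 and 0.038 with it. These blocked calls depended on single arrays: at 0.25% the call was lost in 8 of the 12 fits that left out 1 array, and at 0.5% in 9 of 12. The adjusted p rose to 0.15 without replicate 1 at 0.25% and to 0.14, for 0.5%, without replicate 2 at 2%. The 2 primase subunits, PRI1 and PRI2, stood at -0.01 and -0.06 at 0.25% and at -0.04 and -0.10 at 0.5%, with arrays of the levels overlapping.

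RPA is the trimer that protects single-stranded DNA at the fork. RFA2, its middle subunit, read 866, 925 and 924 at 2%, 845, 750.3 and 902 at 1%, 748, 816 and 824 at 0.5%, and 792, 652 and 817 at 0.25%. The arrays at 0.5% and 0.25% were all below those at 2%, and the lowest value of the 12 was replicate 2 at 0.25%. The log2 difference at 0.25% was -0.27 (SE 0.10; limma adjusted p = 0.16, and 0.032 with the block), and the blocked call was lost without replicate 2 at 0.25% (0.19), without replicate 3 at 0.25%, or without replicate 1 or 2 at 2%.

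RFA1, the largest RPA subunit, read 472, 513 and 490.3 at 2%, 468, 406 and 474 at 1%, 407, 412 and 443 at 0.5%, and 418, 416 and 426 at 0.25%. Both lowest levels lay wholly below 2%. The difference was -0.23 at each of them on the log2 scale (SE 0.08), and it did not pass with the block either (limma adjusted p = 0.063 and 0.066). RFA3, the smallest subunit, was at 0.01 at 0.25% and -0.04 at 0.5%, so the 3 subunits of the trimer did not move by the same amount; the difference between them was not tested.

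**Figure D2:**
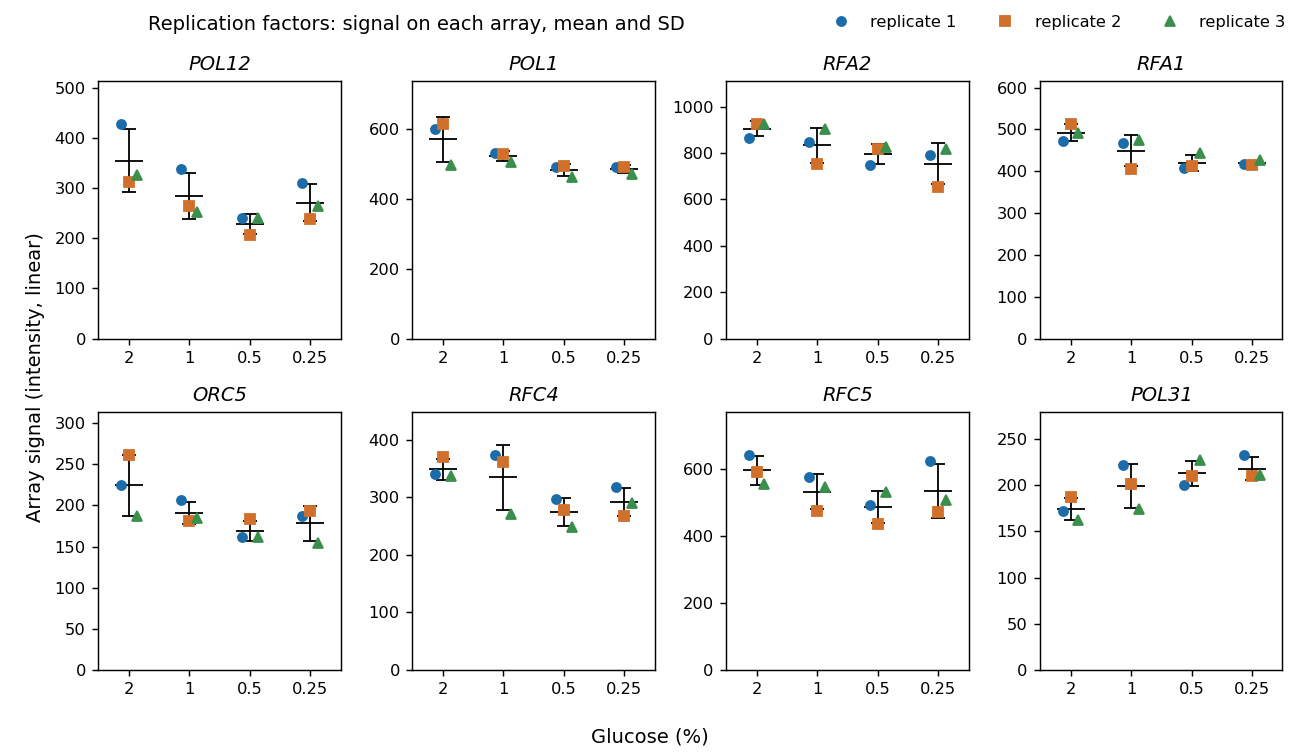
Array signal (y axis, linear intensity from 0) against glucose level (x axis, in percent) for 8 replication factor genes, with 1 symbol per array shaped by replicate number, and the mean and SD of 3 arrays in black. POL12 drops from a mean of 355 at 2% to 229 at 0.5%, and POL31 goes from 174 to 218 at 0.25%.

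The origin recognition complex marks origins throughout the cell cycle. ORC5, an ATP-binding subunit, read 225, 261 and 187 at 2%, 206, 181 and 184 at 1%, 162, 183 and 161 at 0.5%, and 187, 194 and 154 at 0.25%. The 0.5% arrays lay below the 2% arrays, while at 0.25% the 2 levels overlapped. The log2 difference was -0.40 (SE 0.13) at 0.5% (limma adjusted p = 0.18; 0.031 with the block) and -0.32 at 0.25% (0.23; 0.066 with the block). The blocked call at 0.5% was lost without replicate 1 or 2 at 2% or replicate 1 or 2 at 0.5%, with adjusted p up to 0.14.

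ORC1, the largest subunit and also an ATPase, read 257, 270.0 and 181 at 2%, 243, 208 and 202 at 1%, 186, 167 and 192 at 0.5%, and 241, 211 and 196 at 0.25%. Its replicate 3 at 2% lay among the 0.5% values. The log2 difference at 0.5% was -0.36 (SE 0.15; limma adjusted p = 0.27, and 0.075 with the block), and without replicate 3 at 2% it was -0.54 (adjusted p = 0.047). ORC2, ORC3 and ORC4 differed from 2% by -0.04 to -0.18 at 0.25%, so all 5 tested subunits had negative values, with a median of -0.11 at 0.25% and -0.23 at 0.5%, but 0 passed the limma test. ORC6, which was too dim to test, differed by 0.06 at 0.25%, with overlapping arrays.

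The MCM helicase, loaded as a double ring on origins, was close to its 2% level at 0.25% glucose. At 0.25% its 6 subunits had a median log2 difference of 0.00, from -0.09 for MCM6 to 0.16 for MCM2, with 3 below 0. MCM2 read 323, 394 and 375 at 2%, 369.6, 379 and 393 at 1%, 372, 401 and 383 at 0.5%, and 405, 379 and 433 at 0.25%. The levels overlapped in each comparison with 2% (limma adjusted p = 0.45 at 0.25%, SE 0.09). MCM7 had one of the 3 largest negative values at 1%, -0.21 (SE 0.12; adjusted p = 0.80), from 309, 330.4 and 282 at 2%, 316, 230.5 and 257 at 1%, 283, 274 and 294 at 0.5%, and 278, 300.3 and 344 at 0.25%. Replicate 2 at 1% was its lowest array, and the means at 2% and 0.25%, 307 and 308, differed by less than the SD at either level (24.4 and 33.7). At 0.5% the 6 subunits had a median of -0.11, from -0.20 for MCM3 to 0.09 for MCM2, with 5 below 0. The MCM5 arrays at 0.5% lay wholly below those at 2%, as did 15.0% of all tested genes.

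Of the factors that turn the loaded MCM ring into a moving helicase, CDC45, which becomes part of it, differed by -0.12, -0.09 and -0.16 at 0.25%, 0.5% and 1%, with 0 calls. CDC6, which helps the origin recognition complex load MCM, and SLD3, which brings Cdc45 to origins, were below the brightness limit, with signals from 76.9 to 128 and from 82.7 to 123. Their differences at 0.25% were 0.22 and 0.19, in arrays that overlapped with 2%.

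GINS, the tetramer that joins Cdc45 and MCM, had 2 subunits above and 2 below 0 at 0.25%. PSF2 read 166, 161 and 167 at 2%, 179, 169 and 166 at 1%, 176, 171 and 191 at 0.5%, and 201, 178 and 186 at 0.25%. The arrays at 0.5% and at 0.25% all lay above those at 2%, by 0.12 and 0.19 on the log2 scale (limma adjusted p = 0.55 and 0.35; 0.41 and 0.21 with the block). SLD5 read 149.6, 148 and 141 at 2%, 183, 156 and 158 at 1%, 151, 140.2 and 149 at 0.5%, and 175, 147 and 164 at 0.25%. Its 1% arrays were above its 2% arrays (0.18, SE 0.10; limma adjusted p = 0.80). PSF1 stood at -0.21 and PSF3 at -0.04 at 0.25%, and PSF3 at -0.31 at 0.5%. For both genes replicate 1 was the highest array at 1%, 0.5% and 0.25%.

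Among the polymerases that extend the strands, POL31, the second subunit of polymerase delta, was the member with the largest positive difference at all 3 lower levels. Its signal was 172, 188 and 163 at 2%, 222, 202 and 175 at 1%, 201, 210.3 and 228 at 0.5%, and 233, 211 and 211 at 0.25%. The arrays at 0.5% and 0.25% all lay above those at 2%. The mean was 174 ± 12.4 at 2% and 218 ± 12.6 at 0.25%, 1.25-fold higher (log2 0.32, SE 0.11; limma adjusted p = 0.15, and 0.063 with the block). With median scaling the difference passed (0.33, adjusted p = 0.043). The other subunits of the same enzyme, the catalytic POL3 and the nonessential POL32, were at -0.06 and -0.04 at 0.25% and at -0.18 and -0.14 at 0.5%, and POL2, the catalytic subunit of polymerase epsilon, was at -0.16 and -0.23.

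PCNA, the sliding clamp encoded by POL30, read 1846, 1633 and 1688 at 2%, 1526, 1579 and 1437 at 1%, 1762, 1488 and 1415 at 0.5%, and 1604, 1595 and 1429 at 0.25%. The 1% and 0.25% arrays lay below the 2% arrays, the 0.5% arrays did not, and the log2 difference was between -0.15 and -0.18 at the 3 levels, with limma adjusted p from 0.43 to 0.735.

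RFC, the clamp loader that opens PCNA, had 4 of its 5 subunits wholly below 2% at 0.5%: RFC1, RFC3, RFC4 and RFC5. Of all tested genes 15.0% lay wholly below 2% at 0.5%. At 0.25% only 1 of the 5 subunits, RFC4, lay wholly below 2%, against 9.62% of all tested genes. RFC4 read 340.1, 370.2 and 337 at 2%, 373, 361 and 270.3 at 1%, 297, 278 and 249 at 0.5%, and 317, 268 and 289 at 0.25%. Replicates 1 and 2 at 1% were as high as at 2%, while replicate 3 at 1% lay among the 0.5% values. The log2 difference at 0.5% was -0.35 (SE 0.12; limma adjusted p = 0.21, and 0.041 with the block). Leaving out replicate 2 or 3 at 2%, any array at 0.5%, or replicate 1 at 0.25% ended the blocked call, with adjusted p up to 0.14.

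RFC5 read 643, 593 and 555 at 2%, 578, 477 and 547 at 1%, 493, 436 and 533 at 0.5%, and 625, 472 and 508 at 0.25%. Replicate 1 at 0.25% was back within the 2% values. The log2 difference was -0.29 (SE 0.12) at 0.5% (limma adjusted p = 0.26; 0.035 with the block) and -0.17 at 0.25% (0.54; 0.21 with the block), and the blocked call at 0.5% was lost without replicate 1 or 2 at 2% or at 0.5%, with adjusted p up to 0.17. RFC2, by contrast, stayed between -0.03 and 0.03 at all 3 levels, and RFC3 had the smallest spread within levels of all members, 0.04 on the log2 scale.

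The core histone genes lie in 4 neighbouring pairs in the R64 annotation, each pair holding 1 gene for H2A and 1 for H2B or 1 for H3 and 1 for H4. The 7 histone probe sets were bright, with signals from 2317 to 4067 on arrays whose highest signal lay between 4950 and 7056. HTA1, for H2A, read 3952, 3451 and 3724 at 2%, 3594, 3955 and 3681 at 1%, 3945, 4016 and 3412 at 0.5%, and 3678, 3835 and 3419 at 0.25%. Its 4 level means stayed between 3644 and 3791, within 1 SD of each other (189 to 330.1). HTB1, the H2B gene beside it, read 3123, 2769.7 and 3079 at 2%, 2714, 2955 and 3179.9 at 1%, 3342, 3018 and 2773 at 0.5%, and 2805, 2852 and 2713 at 0.25%. The levels overlapped, and among the brightest probe sets of each gene HTB1 had the most negative histone value at 0.25%, -0.10 (95% interval -0.29 to 0.09; limma adjusted p = 0.67).

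The second H2A-H2B pair also overlapped between all levels. HTA2 read 3136, 2991 and 3620.2 at 2%, 3109.8, 3804 and 3560.1 at 1%, 3781, 3622 and 3395 at 0.5%, and 3217, 3498 and 3328 at 0.25%. HTB2 read 2483, 2642 and 3068 at 2%, 2626, 2901 and 2934 at 1%, 2771, 2955 and 2317 at 0.5%, and 2514, 2769 and 2419 at 0.25%. The highest HTB2 array was replicate 3 at 2% and the lowest replicate 3 at 0.5%. At 0.25% HTA2 was at 0.05 (95% interval -0.16 to 0.25) and HTB2 at -0.09 (-0.31 to 0.14).

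HTA2 had 2 probe sets. The brighter one, used above, is of the type that can match more than 1 transcript and may also read HTA1, which was not tested. It differed from 2% by 0.10, 0.15 and 0.05 at 1%, 0.5% and 0.25%, while the other probe set, of the single-gene type, differed by -0.10, -0.16 and -0.11 (means of log2 values, 2180 ± 131 at 2% and 2028 ± 233 at 0.25%). The direction of HTA2 thus depends on the probe set.

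For H3, HHT1 read 3154, 3038 and 3454 at 2%, 2811, 3596 and 3377 at 1%, 3696, 3412 and 3220.1 at 0.5%, and 3085, 3397 and 2990.0 at 0.25%. HHT2 read 3213, 2972 and 3689 at 2%, 3256, 3738 and 4067 at 1%, 3619, 3699 and 3349 at 0.5%, and 3180.2, 3246 and 3473 at 0.25%. HHT2 had the largest histone value at 1%, 0.16 (SE 0.10; limma adjusted p = 0.81), and both H3 genes were within 0.03 of 0 at 0.25%. HHF1, for H4, is read by a probe set of the type that can match more than 1 transcript. It gave 3228, 2942 and 3292 at 2%, 2840.4, 3864 and 3433 at 1%, 3680.4, 3699 and 3175 at 0.5%, and 3078, 3403 and 3068 at 0.25%. Its value was 0.16 at 0.5% (SE 0.11; limma adjusted p = 0.52) and 0.01 at 0.25%.

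**Figure D3:**
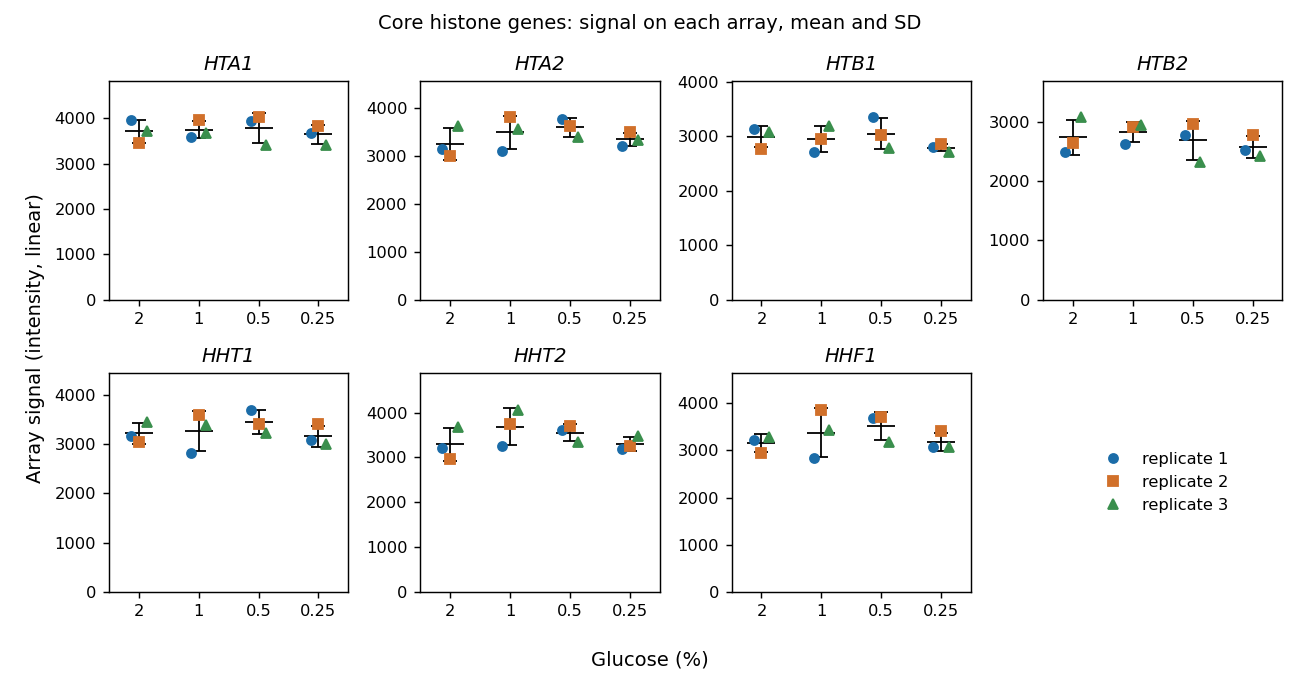
Array signal (y axis, linear intensity from 0) against glucose level (x axis, in percent) for the 7 core histone genes with a probe set, with 1 symbol per array shaped by replicate number, and the mean and SD of 3 arrays in black. All 7 genes overlap between all levels, with signals between 2317 and 4067.

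Across the 7 histone genes the 95% intervals at 0.25% ran from -0.31 to 0.25 with the brightest probe set of each. That bounds a change in these signals at 1.24-fold lower and 1.19-fold higher, and at 0.5% the highest reached 1.31-fold. The single-gene probe set of HTA2, at -0.11 at 0.25% and -0.16 at 0.5%, was not part of these intervals. The arrays of 2% and of each lower level overlapped for all 7 genes, whereas 19.7% of all tested genes did not overlap at 0.25%, 21.5% at 0.5% and 10.6% at 1%. Within pairs of paralogues, the log2 ratio inside each array changed between 2% and 0.25% by 0.07 for HTA2 over HTA1, 0.01 for HTB2 over HTB1 and 0.03 for HHT2 over HHT1. The two-sided exact permutation p was 0.40, 0.90 and 0.80 (0.90 each after adjustment over the 3 pairs; n = 3 against 3, which cannot go below 0.10). With the single-gene probe set of HTA2 its ratio to HTA1 changed the other way, by -0.084 (exact p = 0.40).

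Every member whose arrays did not overlap with 2% was a replication factor. At 0.5% 12 of 40 members (30%) lay wholly below 2% and 2 (5%) wholly above, against 15.0% and 6.53% of all tested genes. At 0.25% there were 7 lower (17.5%) and 2 higher (5%), against 9.62% and 10.1%, and at 1% 2 lower and 1 higher, against 5.60% and 4.97%. Negative values were found for 29, 30 and 29 of the 40 genes at 0.25%, 0.5% and 1% (72.5%, 75% and 72.5%), where 54.1%, 61.5% and 57.4% of all tested genes were negative. With median scaling 25 members were negative at 0.5% (62.5%), against 47.4% of all tested genes.

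**Figure D4:**
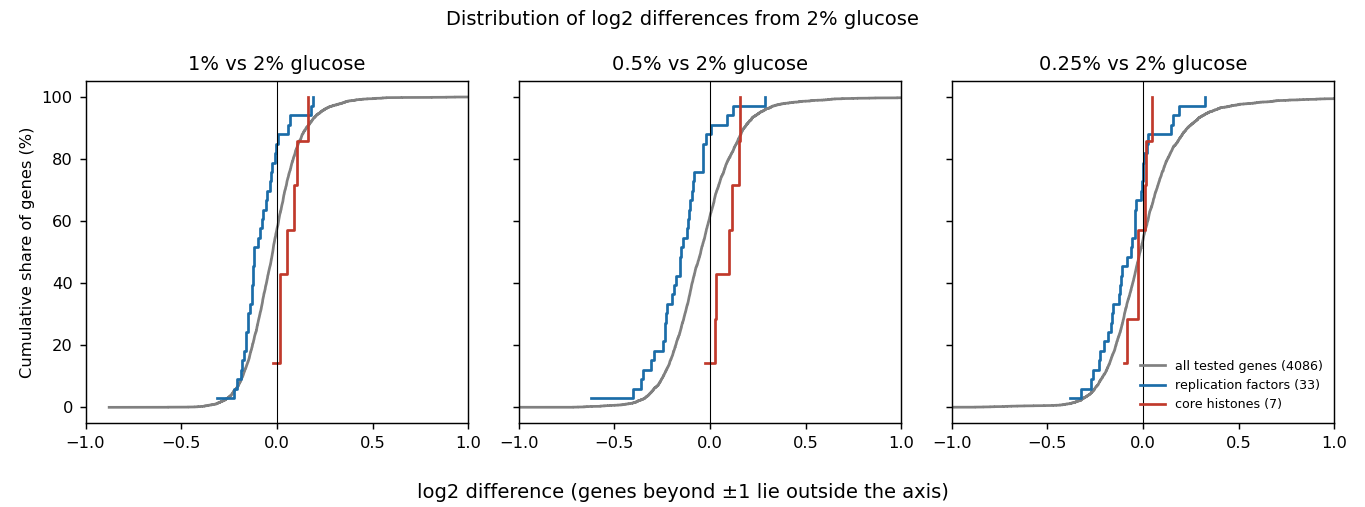
Cumulative share of genes (y axis, percent) by log2 difference from 2% glucose (x axis) for all 4086 tested genes, the 33 replication factors and the 7 core histones at 1%, 0.5% and 0.25%. The line of the factors lies mostly left of that of all genes, with medians of -0.12, -0.15 and -0.06 against -0.02, -0.05 and -0.02, and the histone line lies right of it at 1% and 0.5%.

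Most factors had their lowest level mean above 0.25% glucose, with RFA2 the 1 exception. For 21 of the 33 the lowest of the 4 level means was at 0.5% (63.6%, against 35.4% of all tested genes), and for 25 the highest was at 2% (75.8%, against 40.8%). With median scaling 11 were lowest at 0.5% (33.3%, against 17.9%) and 22 highest at 2%, and with quantile normalization the count at 0.5% was 11 too (against 21.4%). From 1% to 0.5% 23 of the 33 had negative values, as did 57.9% of all tested genes (medians -0.06 and -0.02). From 0.5% to 0.25% only CDC45, POL30 and RFA2 had negative values, 3 of 33, as did 34.6% of all tested genes (medians 0.06 and 0.04). All 7 histone genes went the other way in that last step by their brightest probe sets, with values from -0.05 to -0.14. The single-gene probe set of HTA2 instead went from -0.16 at 0.5% to -0.11 at 0.25%, relative to 2%. No member passed for either step by limma, while 0.0979% and 0.122% of all tested genes did. At an unadjusted p under 0.05 there were 1 and 0 members, against 3.38% and 3.33% of all tested genes. Of the 40 members, ORC1, SLD5, POL1 and POL12 lay wholly lower at 0.5% than at 1% (10%, against 4.85% of all tested genes), and ORC1, MCM5 and RFC3 wholly higher at 0.25% than at 0.5% (7.5%, against 7.34%).

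A slope on the log2 glucose level gave no call among the 40 members without a block, against 5.19% of all tested genes, with 8 members at an unadjusted p under 0.05 (20%, against 17.5%). The smallest adjusted p was that of POL31, 0.083, at 0.11 per halving of glucose (log2 scale, SE 0.03), followed by RFA2 (-0.09, 0.093). The F-test for any difference from 2% called 0 members by limma, against 2.13% of all tested genes. At an unadjusted p under 0.05 it had 4 members (10%), against 10.6% of all tested genes.

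The members' spread was near that of other genes. Their signal over all 12 arrays spanned from 0.15 on the log2 scale for RFC3 to 1.06 for POL12, with a median of 0.44, beside 0.48 over all tested genes. Of the variation of a typical factor, 36.1% lay between glucose levels and 22.3% between replicate numbers (medians over 33 genes), beside 27.3% and 29.4% over all tested genes. In the histones 22.7% lay between levels, 14.5% between replicate numbers and 64.4% in the rest, so most of their variation followed neither label. With 4 levels and 3 replicate numbers over 12 arrays, each label takes a share even of pure noise. The shares that noise would give were not computed. ORC3, PSF1 and PSF3 followed the replicate number most, with 69.6%, 62.2% and 54.7% of their variation. POL12 and RFA1 followed the glucose level most among the members, with 64.1% and 68.4%.

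Other genes of the replication and cell cycle machinery were taken from 12 lists with 87 genes, of which 75 were tested; the lists were written with earlier results known. None of the 75 passed against 2% at any level without a block. With the block at 0.25%, where 4.53% of all tested genes were called lower and 6.36% higher, the Okazaki fragment and topoisomerase list had 1 of 8 lower, RNH203 of RNase H2 (-0.25; limma adjusted p = 0.029), and the fork protection and checkpoint list 1 of 4 lower, TOF1 (-0.42; 0.022). Of 6 genes of nucleotide reduction and thymidylate synthesis 1 rose, RNR2, the small subunit of ribonucleotide reductase (0.26; 0.021). The list medians were -0.09, -0.21 and -0.05. In the first of these lists CDC9 had the lowest value, -0.26 (limma adjusted p = 0.13 without the block). All 5 tested genes among the other initiation factors were negative at 0.25%, from -0.23 for TAH11, the yeast Cdt1, to -0.12 for DPB11, with 0 calls in either fit.

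Histone partners showed no call at 0.25% in either fit. The 9 chaperone and assembly genes had a median of -0.16, with 8 negative, and the 3 genes for variant and linker histones were between -0.03 for HTZ1 and 0.15 for HHO1. Among 6 tested regulators of the histone genes, HIR1, of the HIR corepressor, had the lowest value (-0.28) and HPC2, of the same complex, the highest (0.26). At 0.5% HIR1 was at -0.38 and passed with the block (limma adjusted p = 0.023), the 1 call among these 6 regulators. The block called 6.34% of all tested genes lower at 0.5% and 3.35% higher. Of the other lists at 0.5%, the block called 2 of 8 Okazaki fragment and topoisomerase genes lower. It called 1 of 6 nucleotide reduction and thymidylate genes and 1 of 9 M/G1 genes higher.

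Genes that mark other phases of the cell cycle gave mixed values. The 12 tested G1/S regulators had a median of -0.02 at 0.25% with 0 calls in either fit, from -0.19 for CLB6, an S-phase cyclin, to 0.30 for HCM1, an S-phase transcription factor. With the block, which called 6.36% of all tested genes higher at 0.25%, 2 of 7 G2/M genes rose, CLB2 (0.67; limma adjusted p = 0.051 without and 0.0073 with it) and SWI5 (0.41; 0.048 with it), and the list median was 0.05. Of 9 M/G1 genes 3 rose with the block, ASH1 (0.31; 0.015), PIR1 (0.30; 0.0087) and DSE1 (0.40; 0.032), and 1 fell, DSE4 (-0.23; 0.028; 4.53% of all tested genes were called lower), which was named after its value was seen; the list median was 0.13. ASH1 also passed for the slope over all 4 levels without a block (0.11 per halving; adjusted p = 0.021). These lists were compared with the same 2% arrays, whose 3' to 5' ratio was 0.91 against 0.59 at 0.25%, and its part in the values was not tested.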

How the data were processed

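Total RNA of 12 samples was labelled with biotin and read on Affymetrix arrays, per the labels' protocols. The deposited values are intensities, 1 summarised signal per probe set, already scaled by the authors: on every array the probe sets above 0 have a mean of 500.0 once 2% at either end are trimmed. Which program made them is not given here. Probe sets were named through the platform's annotation table (5498 with 1 yeast gene, 1 with several symbols, 3683 with none listed); the brightest of a gene was used for 47 genes with several. Values under 1 were set to 1 before taking log2, and genes with mean log2 at or below percentile 25 were left out.

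Levels were compared over all 12 arrays in R 4.3.3 by limma 3.58.1, with 1 coefficient per level, a variance prior that follows intensity, two-sided tests and Benjamini-Hochberg adjustment. A lower level minus the higher one is given. Array number limits the precision. The method was tested on simulated data. Same-numbered arrays were compared by the correlation of their deviations from the level means; 17 of 18 pairs exceeded 0.1 (from -0.03 to 0.71). All pairs passed for every comparison except 1% against 2%, and the block is printed for comparisons where they passed. Members and lists were chosen with earlier results of these data known. Members named in full are the histones, those called with or without the block, and the 3 largest rises and falls at each level; other genes are named where called or largest in their list at 0.25%. Alternatives were other scalings, an offset of 16, other dim filters, the mean of probe sets, the block, the compared levels alone, no intensity trend, and each array left out.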

Additional observations from a re-analysis of the deposited data

How the results depend on the processing

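The count of 0 members called by limma changed under few settings. For other scalings, dim filters and left-out arrays the share of all tested genes called is not given here. The counts in those settings are therefore no result about the members. For 0.25% against 2% it was 1 with median scaling (POL31), 3 with the replicate block, and from 0 to 1 when single arrays were left out (POL1 without replicate 3 at 2%). For 0.5% against 2% it was 2 with quantile normalization (POL12 and POL31), 1 with median scaling, 1 with no dim filter, 5 with the replicate block, and from 0 to 1 without single arrays (ORC1 without replicate 3 at 2%, POL12 without replicate 1 at 1% or replicate 1 at 0.25%). The F-test called 1 member with the replicate block, POL12. For the trend the count was 2 with quantile normalization, 1 with median scaling, 5 with the replicate block and from 0 to 1 without single arrays (POL31 without replicate 1 at 1%, POL12 without replicate 1 at 0.25%). The blocked fits called 10.6% of all tested genes for the trend and 8.13% in the F-test. For the trend and the F-test the numbers were not taken to pair the arrays, since 1 of 18 pairs had an r of -0.03, although 11 of 12 arrays correlated best with an array of their own number. The members in the blocked trend were POL1, POL12, POL31, RFA1 and RFA2. The comparison of 1% with 2% and the single steps had 0 calls in every setting run, the block included.

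The following were chosen after seeing the data. With the replicate block and quantile normalization the counts were 7 at 0.25%, 4 at 0.5% and 8 for the trend. With the block and median scaling they were 6, 6 and 7, and with the block and an offset of 16 they were 3, 5 and 5. The shares of all tested genes called in these settings are not given here, so these counts are no result about the members. With the block and 1 array left out they ran from 0 to 4 at 0.25%, from 1 to 5 at 0.5% and from 0 to 5 for the trend. At 0.25% the count was 0 without replicate 1 at 2%, replicate 2 at 0.25% or replicate 3 at 0.25%. At 0.5% it was 1 (POL12) without replicate 2 at 2%, replicate 1 at 0.5% or replicate 2 at 0.5%. For the trend it was 0 without replicate 2 at 2%. With the single-gene probe set of HTA2 the change in its ratio to HTA1 was -0.084 in place of 0.07 (exact permutation p = 0.40 for each).

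Of the 80 values of named members, 0 changed direction while called in any setting. No member was called in the main fit, so such a change could hardly occur. The single-gene probe set of HTA2 was not part of this count. Uncalled values did change sign: under quantile normalization 3 of 40 members at 0.25% and 6 at 0.5%, and under median scaling 1 and 5. Among single arrays left out, replicate 2 at 2% changed the most signs, 12 at 0.25%, 6 at 0.5% and 8 at 1%. The values that changed sign without it reached 0.09, 0.10 and 0.14 in size. The histone median at 0.5% was -0.01 with quantile normalization in place of 0.10, and the median of the factors at 0.25% was -0.14 without replicate 3 at 2%. Without replicate 2 at 2% the median of the factors at 1% was -0.03.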
